A study of Mus musculus with 15 samples.

Results

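Eicosanoids are signaling lipids made from arachidonic acid, and 10 genes of their synthesis were followed here across 5 groups of mouse macrophages. The genes were *Ptgs1* and *Ptgs2* (cyclooxygenases), *Hpgds*, *Tbxas1* and *Ptges* (terminal prostanoid synthases), *Alox5*, *Alox5ap* and *Alox15* (the lipoxygenase branch), and *Lta4h* and *Ltc4s* (leukotriene synthases). They were taken as the rows of the raw count matrix whose Ensembl mouse gene IDs carry these symbols. All 10 were found among 53465 rows, and 8 had enough counts to be tested. The cells were bone marrow-derived macrophages (BMDMs) of mice aged 8 to 12 weeks, grown from marrow mononuclear cells in 20 ng/ml of M-CSF for 7 days. The study's methods give this source and culture for its BMDMs in general, and the sample labels do not repeat it for each library. Whether control and treated cells came from the same preparation is not given in the sources used here. Controls were left untreated, and the other groups received, for 24 h, 10 ng/ml IL-4 (IL-4 group), this IL-4 plus 40 ng/ml IL-6 (IL-4/IL-6), 40 ng/ml IL-13 (IL-13), or this IL-13 plus 40 ng/ml IL-6 (IL-13/IL-6). Each group had 3 replicate libraries, 15 in all, and there was no group with IL-6 alone. The question was how IL-6 co-addition alters the response to IL-4 and IL-13.

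Prostanoid synthesis begins when a phospholipase frees arachidonic acid from membranes and a cyclooxygenase turns it into prostaglandin H2. Each terminal synthase then makes its own product from that intermediate, among them prostaglandin D2, prostaglandin E2 and thromboxane A2. Leukotriene synthesis instead starts with 5-lipoxygenase and its activating protein FLAP, followed by the enzymes that make leukotriene B4 or leukotriene C4. Macrophages are a known source of both classes, and IL-4 and IL-13 are cytokines known to shift which of these enzymes a macrophage or monocyte expresses.

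Promoter windows of 4 prostanoid members are shown here because *Ptgs2* and *Tbxas1* were higher, and *Ptges* and *Hpgds* lower, in all 4 cytokine groups than in untreated cells. *Lta4h*, a leukotriene synthase, was also lower in all 4 and its window is not shown. They are RefSeq windows on GRCm38.p6, 250 bases before to 50 bases after the annotated start, 5′ to 3′ on the gene's strand. They lie at chr1:150099781-150100080 for *Ptgs2* and chr6:38918736-38919035 for *Tbxas1*, both on the plus strand. Those of *Ptges*, at chr2:30903248-30903547, and *Hpgds*, at chr6:65144681-65144980, lie on the minus strand. The annotated start of the *Tbxas1* window lies 43582 bases and that of *Ptges* 26566 bases inside the Ensembl gene whose counts are given here, so these windows need not be the promoters in use, and that of *Hpgds* lies 178 bases inside. Of the 10 members, 8 had a window in this set. Capitals mark motif matches.
Ptgs2: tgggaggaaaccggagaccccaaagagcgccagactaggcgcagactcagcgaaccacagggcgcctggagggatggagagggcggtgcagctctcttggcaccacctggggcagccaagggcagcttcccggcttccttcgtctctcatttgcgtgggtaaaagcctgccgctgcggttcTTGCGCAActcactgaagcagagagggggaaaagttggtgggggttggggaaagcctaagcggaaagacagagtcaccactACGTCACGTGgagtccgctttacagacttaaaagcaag
Tbxas1: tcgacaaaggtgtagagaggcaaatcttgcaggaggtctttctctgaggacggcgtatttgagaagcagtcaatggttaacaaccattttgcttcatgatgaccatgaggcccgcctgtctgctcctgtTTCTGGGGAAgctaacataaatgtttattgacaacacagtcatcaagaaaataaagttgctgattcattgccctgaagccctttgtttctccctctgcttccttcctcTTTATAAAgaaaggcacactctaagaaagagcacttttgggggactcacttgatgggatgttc
Ptges: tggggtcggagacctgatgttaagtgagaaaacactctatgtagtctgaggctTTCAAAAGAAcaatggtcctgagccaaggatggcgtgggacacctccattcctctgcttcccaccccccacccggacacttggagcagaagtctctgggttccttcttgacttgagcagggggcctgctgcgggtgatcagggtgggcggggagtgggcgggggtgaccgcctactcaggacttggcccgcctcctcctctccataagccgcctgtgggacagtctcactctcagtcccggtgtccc
Hpgds: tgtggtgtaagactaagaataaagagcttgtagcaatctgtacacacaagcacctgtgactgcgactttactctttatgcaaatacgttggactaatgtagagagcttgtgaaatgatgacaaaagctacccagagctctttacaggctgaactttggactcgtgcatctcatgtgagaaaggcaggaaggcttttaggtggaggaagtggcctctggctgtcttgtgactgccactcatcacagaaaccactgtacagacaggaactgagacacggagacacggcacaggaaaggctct

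The 6 motifs searched for, on both strands, began with the half-sites TTC and GAA bound by STAT factors, spaced by 3 bases (TTCNNNGAA) or by 4. The third was TTGCGCAA, a C/EBP palindrome. After it came TGACGT, a cAMP-response half-site. An E-box, CACGTG, was the next. The last was the TATA box TATAAA. In the *Ptgs2* window TTGCGCAA began 69 bases before the start, a motif found in 0.183% of the 32851 promoter windows. Counting the annotated start as 1, TGACGT began at position 13, as its reverse complement, and CACGTG at position 17, so that these matches share bases. Positions in all windows refer to the annotated start, and which start these cells used was not measured. TGACGT was found in 7.51% and CACGTG in 7.15% of all windows. The 4-base STAT spacing, held by 6.95% of windows, began 121 bases before the start in *Tbxas1*, which rose with IL-4, and 197 bases before it in *Ptges*, which fell. *Tbxas1* also held TATAAA 11 bases before the start and its reverse complement, overlapping it, 13 bases before. The TATA box letters are in 13.6% of windows. None of the 6 occurred in the *Hpgds* window, and TTCNNNGAA, present in 8.3% of all windows, occurred in none of the 4. A match describes the sequence and shows no binding.

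Libraries held between 17001352 and 18918686 counts, which was similar across groups. Replicate spread was not: the common biological coefficient of variation was 4.48% in controls and 4.54% with IL-4, against 14.8% with IL-4/IL-6, 10.9% with IL-13 and 7.38% with IL-13/IL-6. Single libraries stood apart. In the mean chi-square per gene between the counts of 2 replicates, IL-4/IL-6 replicate 2 was at 26.3 and 46.6 from the other two, which were at 7.55 from each other. IL-13 replicate 1 was at 22.3 and 17.1, against 3.93 between the other two, and all pairs in the remaining groups lay between 2.68 and 7.95. The deviations of these 2 libraries from their group means correlated with an r of 0.39 across genes, which are not independent replicates. Without IL-4/IL-6 replicate 2 no call of a member changed, and without IL-13 replicate 1 those of *Hpgds* and *Alox5ap* did, for IL-6 over IL-13 (values beside those genes). All 8 macrophage markers, among them *Adgre1*, *Csf1r* and *Cd68*, were detected in every group, and they summed to between 18935 and 21114 normalized CPM in controls and between 10900 and 19800 in treated libraries. Of these 8, 1 was called higher and 5 lower with IL-4, and 3 higher and 3 lower with IL-13. When IL-6 was added to IL-4, 3 were called higher and 5 lower, and when added to IL-13, 3 higher and 2 lower. *Cd68* ranged from 1293 to 1340 in controls and from 1442 to 1827 in treated libraries. *Mertk*, a receptor for apoptotic cells, ranged from 132 to 156 normalized CPM in controls and from 7.15 to 18.8 in the 12 cytokine-treated libraries. Most marker lists of other cells summed higher in controls, with exceptions among platelet and eosinophil markers. The 7 neutrophil markers summed to between 336 and 402 normalized CPM in controls and between 0.979 and 2.04 in treated libraries, all 7 below every control, with *Ly6g* at 0. The 8 mast cell and basophil markers summed to between 8.87 and 9.48 in controls and at most 0.236 in treated libraries, with *Tpsb2*, *Cma1* and *Mcpt4* at 0 in all libraries. The 6 platelet markers summed to between 389.6 and 436 in controls and between 71.7 and 422 in treated libraries. Of these, 5 lay below every control, while *Pf4* averaged 97.4 in controls, 68.7 with IL-4, 75.5 with IL-13, 235 with IL-4/IL-6 and 390.1 with IL-13/IL-6. The 5 eosinophil markers summed to between 29.1 and 34.0 and between 20.9 and 79.2, respectively. Of these, 4 lay below every control in all treated libraries, with *Epx* at 0 and *Prg2* going from between 13.2 and 15.3 to at most 0.221. The other, *Ccr3*, ranged from 0.898 to 1.27 in controls and from 15.8 to 78.3 in treated libraries. The dendritic cell, stromal, and B and T cell lists summed to between 9.99 and 12.7, 9.22 and 11.4, and 4.43 and 5.10 in controls, and to no more than 1.13, 0.230 and 0.901 in treated libraries. These cell types can express several of the 10 genes and of the other pathway genes, and their part in the differences between groups was not tested. In bulk RNA, fewer cells of a type and less RNA per cell cannot be told apart.

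Per unit of transcript length (FPKM), the same 5 genes led in all groups: *Hpgds*, *Alox5ap*, *Tbxas1*, *Ptgs1* and *Lta4h*. The next gene was lower by at least 8.62-fold. In untreated cells *Hpgds* was highest at 49.3 ± 0.260 FPKM (SD, n = 3), followed by *Alox5ap* at 37.7 ± 3.41, *Tbxas1* at 22.3 ± 0.321, *Ptgs1* at 20.9 ± 0.942 and *Lta4h* at 17.8 ± 0.960, with no overlap between neighbours. *Ptges* at 1.69 ± 0.105 and *Alox5* at 1.52 ± 0.0722 came next and overlapped. Below them were *Ltc4s* at 0.502 ± 0.128, *Alox15* at 0.292 ± 0.0873 and *Ptgs2* at 0.0840 ± 0.0608 FPKM.

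The leading gene differed between groups. With IL-4, *Alox5ap* at 38.6 ± 1.63 FPKM and *Tbxas1* at 38.2 ± 0.810 overlapped at the top, *Ptgs1* followed at 35.6 ± 1.08, and *Hpgds* was below it at 17.5 ± 0.487. With IL-4/IL-6, *Ptgs1* was first at 36.8 ± 1.28 FPKM, clear of *Tbxas1* at 29.5 ± 1.14 and *Alox5ap* at 26.8 ± 1.66. With IL-13 the order was *Alox5ap* at 45.9 ± 1.55, *Hpgds* at 31.9 ± 2.53 and *Tbxas1* at 26.5 ± 0.208 FPKM. The same 3 genes led with IL-13/IL-6, at 50.9 ± 0.792, 35.0 ± 1.79 and 31.3 ± 0.628 FPKM, respectively. *Ptgs2*, last in controls, led the lower genes with IL-13/IL-6 at 1.08 ± 0.123 FPKM, above *Ptges* and *Alox5*.

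**Figure D1:**
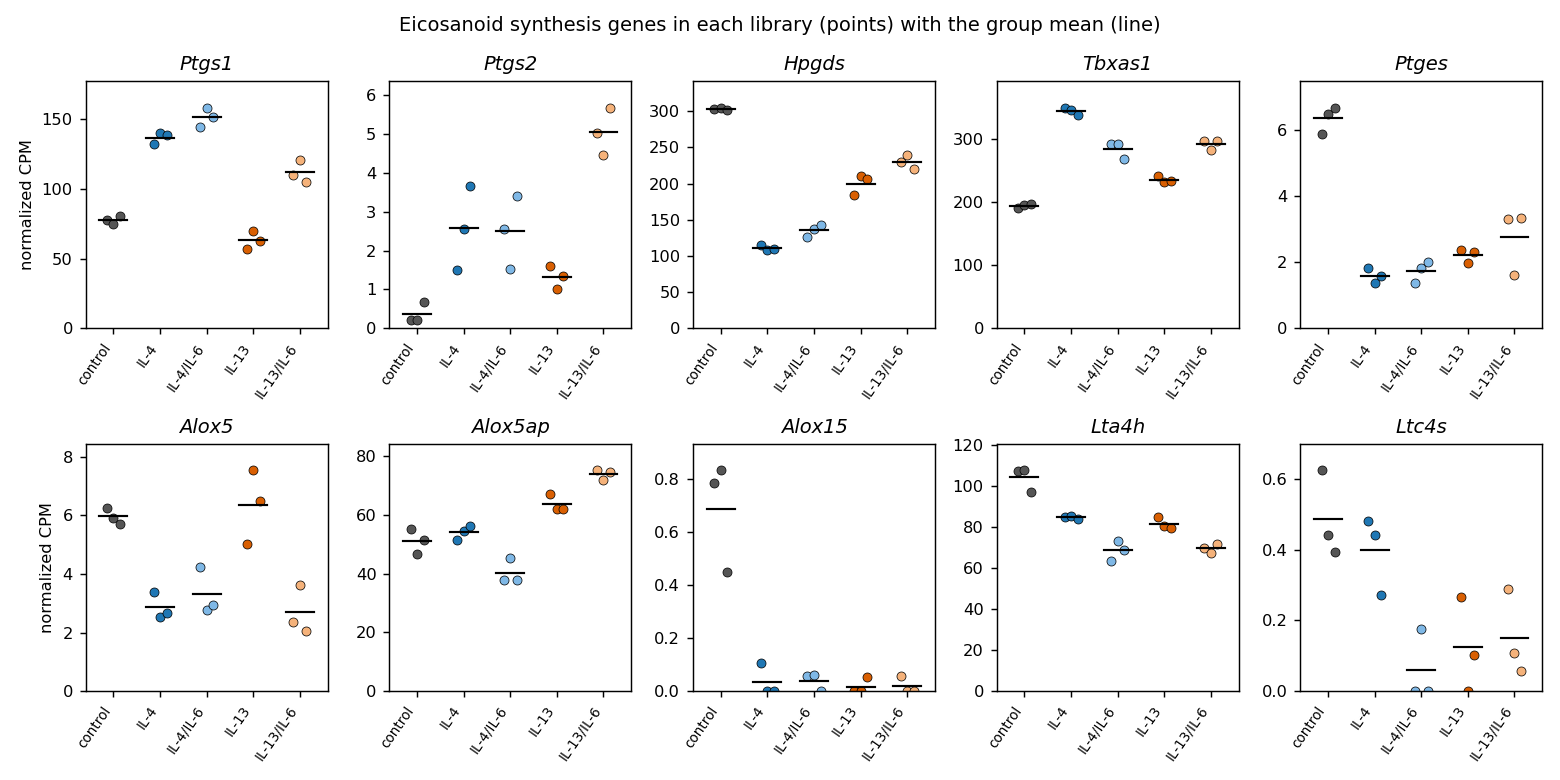
Normalized CPM of each of the 10 genes (vertical axis, linear, one panel a gene) in the 3 replicate libraries of each group (horizontal axis); points are libraries and short lines the group means. Hpgds lies at 302 to 305 in controls and at 109 to 115 with IL-4, and Ptgs2 reaches its highest values, 4.45 to 5.67, with IL-13/IL-6.

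Of the 8 tested members, 7 changed with IL-4 relative to untreated cells at an adjusted p under 0.05: *Ptgs1*, *Ptgs2* and *Tbxas1* rose, and *Alox5*, *Ptges*, *Lta4h* and *Hpgds* fell. With IL-13 there were again 3 higher (*Ptgs2*, *Tbxas1* and *Alox5ap*) and 4 lower (*Ptgs1*, *Ptges*, *Lta4h* and *Hpgds*). Over all 13938 tested genes, 68% were called with IL-4 (32.1% higher and 35.9% lower) and 60.1% with IL-13 (29% higher and 31.1% lower), so that a called member is not unusual here. The median log2 fold change of the tested members was -0.11 with IL-4 and -0.10 with IL-13, beside -0.05 and -0.02 over all genes tested. Over 2-fold, 4 members changed with IL-4 and 2 with IL-13, against 26.1% and 20.3% of all tested genes. These tests, as all adjusted p-values below unless another tool is named, come from the quasi-likelihood test of edgeR, adjusted by the Benjamini-Hochberg method over all tested genes.

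IL-6 co-addition with IL-4 raised *Hpgds* and lowered *Alox5ap*, *Lta4h* and *Tbxas1*; the other 4 did not pass, and none moved over 2-fold. Of all tested genes, 39.4% were called in this comparison, 20.7% higher and 18.7% lower, and 11.8% over 2-fold. IL-6 co-addition with IL-13 raised *Ptgs1*, *Ptgs2*, *Hpgds* and *Tbxas1* and lowered *Alox5* and *Lta4h*, with *Ptgs2* and *Alox5* over 2-fold. Here 25.6% of all tested genes were called, 12.1% higher and 13.5% lower, and 7.25% over 2-fold. The members' median log2 fold change was 0.04 with IL-4 and 0.26 with IL-13, beside 0.04 and 0.01 over all genes. Against untreated cells all 8 tested members passed in both co-treated groups, where 72.9% (IL-4/IL-6) and 64% (IL-13/IL-6) of all genes were called. The IL-4/IL-6 count was 3 higher and 5 lower, beside 35.4% and 37.5% of all genes. The IL-13/IL-6 count was 4 higher and 4 lower, beside 31.9% and 32.1%. The comparisons with untreated cells share the control libraries.

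**Figure D2:**
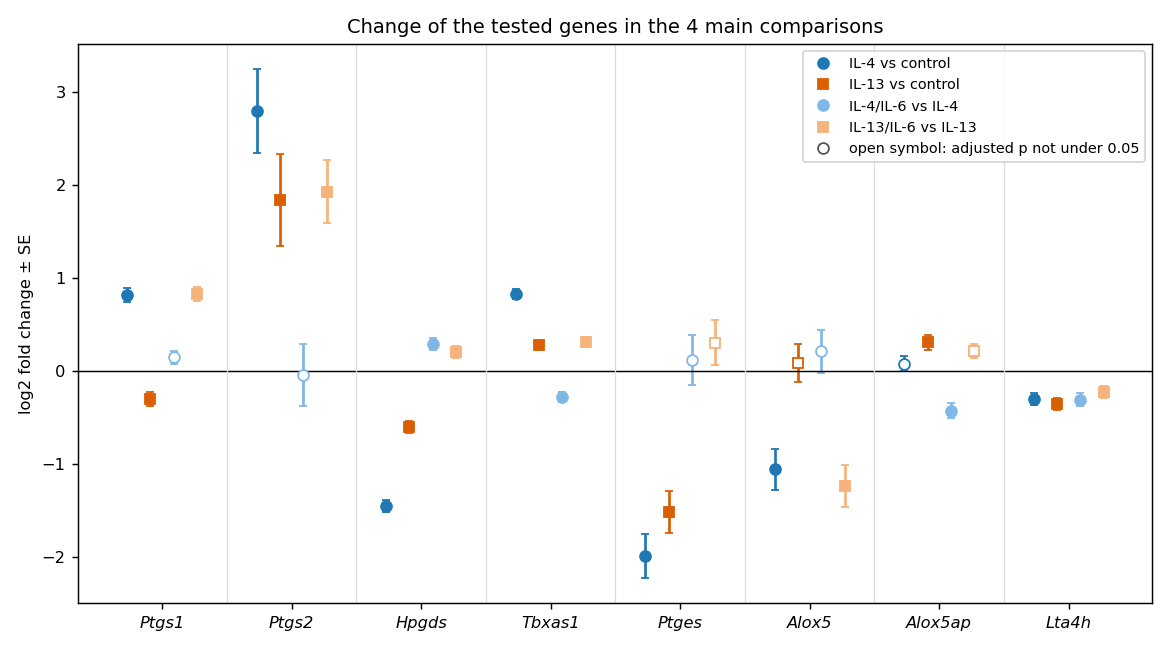
Log2 fold change (vertical axis) with its standard error for the 8 tested genes (along the horizontal axis) in 4 comparisons, each with 3 against 3 libraries; filled symbols passed an adjusted p of 0.05 and open symbols did not. Ptgs2 has the widest bars and the largest rise, 2.79 with IL-4, and Ptges the largest fall, -1.99.

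*Ptgs1* (cyclooxygenase 1; ENSMUSG00000047250, GRCm38 chr2:36230426-36252272, plus strand) is the cyclooxygenase most cells express constitutively. Its normalized CPM was 77.7, 74.6 and 80.4 in controls, 132, 139.7 and 138 with IL-4 and 144, 158 and 151 with IL-4/IL-6. The IL-13 libraries were at 57.0, 69.7 and 62.6 and those with IL-13/IL-6 at 110.1, 121 and 105. No pair of neighbouring groups overlapped: IL-4/IL-6 was highest, then IL-4, IL-13/IL-6, control and IL-13. *Ptgs1* was 1.76-fold higher with IL-4 than in controls (log2 fold change 0.82 ± 0.076 SE, adjusted p = 5.38e-08) and 1.23-fold lower with IL-13 (log2 fold change -0.30 ± 0.077 SE, adjusted p = 0.00296). Adding IL-6 to IL-13 raised it 1.78-fold (log2 fold change 0.83 ± 0.076 SE, adjusted p = 2.12e-07), back above the control level (1.44-fold, adjusted p = 1.03e-05). Adding IL-6 to IL-4 gave a log2 fold change of 0.15 ± 0.075 SE, which did not pass (adjusted p = 0.132) although the libraries did not overlap. The difference between these IL-6 effects, tested as an interaction, was 0.68 ± 0.11 SE on the log2 scale (adjusted p = 0.000442).

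*Ptgs2* (cyclooxygenase 2; ENSMUSG00000032487, GRCm38 chr1:150100031-150108227, plus strand) is the inducible cyclooxygenase. Untreated cells had 0.208, 0.222 and 0.673 normalized CPM. After IL-4 this was 1.50, 2.55 and 3.66, and after IL-4/IL-6 2.55, 1.53 and 3.40. After IL-13 it was 1.61, 1.01 and 1.34, and after IL-13/IL-6 5.03, 4.45 and 5.67. These are low levels: the control libraries held 4, 4 and 12 counts and the IL-13/IL-6 libraries 87, 82 and 102. Every treated library lay above every control, and every IL-13/IL-6 library above all others, whereas IL-4 and IL-4/IL-6 overlapped. *Ptgs2* was 6.93-fold higher with IL-4 (log2 fold change 2.79 ± 0.45 SE, adjusted p = 3.63e-05) and 3.59-fold higher with IL-13 (log2 fold change 1.84 ± 0.49 SE, adjusted p = 0.00402) than in controls. IL-6 raised it a further 3.80-fold over IL-13 (log2 fold change 1.93 ± 0.34 SE, adjusted p = 0.000311), which made IL-13/IL-6 13.6-fold higher than control (log2 fold change 3.77 ± 0.42 SE, adjusted p = 5.61e-07). Over IL-4 the change with IL-6 was -0.04 ± 0.33 SE (adjusted p = 0.945). The IL-6 effects differed by 1.96 ± 0.48 SE on the log2 scale (adjusted p = 0.0152), but this difference did not pass without IL-4 replicate 3 (1.63, adjusted p = 0.0624). Control replicate 3 carries most of the control counts; without it the log2 fold changes over control were 3.54 with IL-4, 3.49 with IL-4/IL-6, 2.59 with IL-13 and 4.51 with IL-13/IL-6.

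Within each library, the FPKM ratio of *Ptgs1* to *Ptgs2* was 326 ± 161 (SD, n = 3) in controls. It was 71.1 ± 30.2 with IL-4, 80.4 ± 36.6 with IL-4/IL-6, 59.4 ± 20.0 with IL-13 and 26.6 ± 5.12 with IL-13/IL-6. The 3 control ratios, 439.5, 397 and 141, lay above all treated ones, and the 3 IL-13/IL-6 ratios, 25.8, 32.0 and 21.9, lay below all others. *Ptgs1* stayed the more abundant cyclooxygenase transcript in all 15 libraries.

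**Figure D3:**
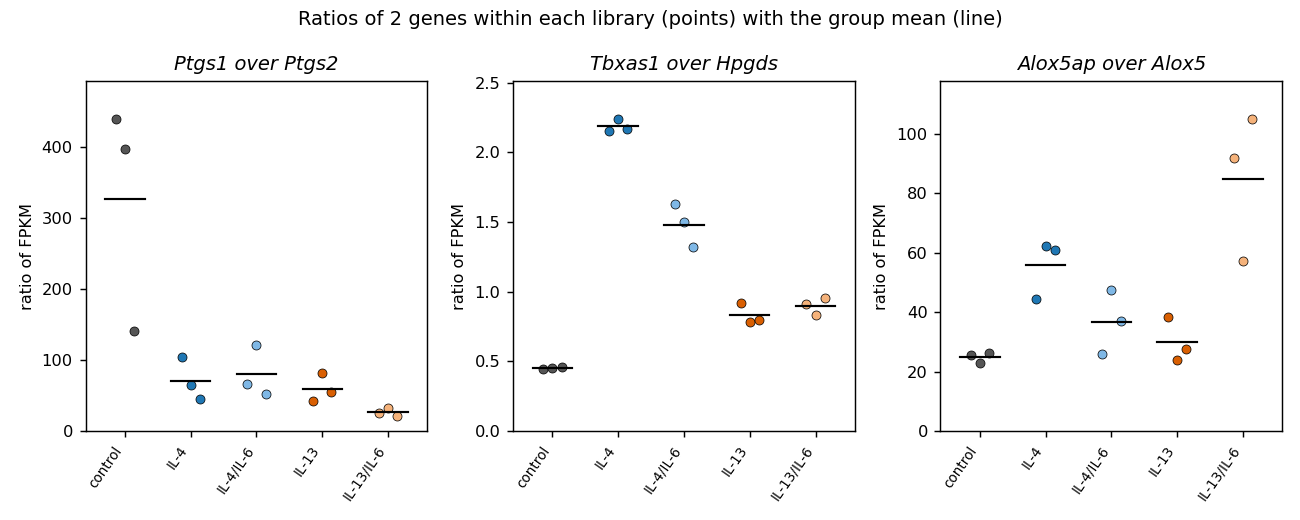
FPKM ratios within each library (vertical axes, linear and starting at 0) of Ptgs1 to Ptgs2, Tbxas1 to Hpgds and Alox5ap to Alox5, by group; points are libraries and lines group means (n = 3). Tbxas1 to Hpgds runs from 0.452 in controls to 2.19 with IL-4, without overlap between those groups.

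*Hpgds* (hematopoietic prostaglandin D synthase; ENSMUSG00000029919, GRCm38 chr6:65117293-65144908, minus strand) makes prostaglandin D2. Control values were 303, 305 and 302 normalized CPM, and those with IL-4 were 115, 109 and 109.9. The IL-4/IL-6 values were 127, 138 and 143, the IL-13 values 184, 209.9 and 206, and the IL-13/IL-6 values 230.3, 239.8 and 220.0. The 5 groups did not overlap, with control highest and IL-4 lowest. *Hpgds* fell 2.73-fold with IL-4 (log2 fold change -1.45 ± 0.066 SE, adjusted p = 5.87e-12) and 1.52-fold with IL-13 (log2 fold change -0.60 ± 0.065 SE, adjusted p = 4.55e-07). IL-6 raised it 1.22-fold over IL-4 (log2 fold change 0.29 ± 0.065 SE, adjusted p = 0.00171) and 1.15-fold over IL-13 (log2 fold change 0.20 ± 0.065 SE, adjusted p = 0.0284), and both co-treated groups stayed below control (log2 -1.16 with IL-4/IL-6 and -0.40 with IL-13/IL-6, adjusted p = 5.29e-11 and 3.83e-05). The rise over IL-13 is not firm: it lost its call in 10 of 16 alternative analyses, with adjusted p up to 0.184, among them those without IL-13 replicate 1 (0.146), IL-13 replicate 3 (0.0533), IL-13/IL-6 replicate 1 (0.0897) and IL-13/IL-6 replicate 2 (0.129). The IL-6 effects gave an interaction of -0.09 ± 0.092 SE (adjusted p = 0.709). *Hpgds* is also expressed by mast cells. Their proteases *Tpsb2*, *Cma1* and *Mcpt4* were at 0 in all libraries, while *Cpa3* ranged from 2.69 to 3.33 normalized CPM in controls and reached at most 0.177 in treated libraries.

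*Tbxas1* (thromboxane A synthase 1; ENSMUSG00000029925, GRCm38 chr6:38875404-39084585, plus strand) makes thromboxane A2. In the 3 control libraries, *Tbxas1* stood at 190.4, 196 and 196 normalized CPM. It stood at 349.5, 345 and 337 with IL-4 and at 292, 292 and 268 with IL-4/IL-6. With IL-13 it was at 241, 232 and 233, and with IL-13/IL-6 at 297, 282 and 296. All treated libraries lay above all controls, IL-4 stood highest, and IL-13/IL-6 and IL-4/IL-6 overlapped. *Tbxas1* rose 1.77-fold with IL-4 (log2 fold change 0.83 ± 0.055 SE, adjusted p = 7.20e-10) and 1.21-fold with IL-13 (log2 fold change 0.28 ± 0.055 SE, adjusted p = 0.000317). IL-6 had opposite signs on this gene: it lowered it 1.21-fold in the presence of IL-4 (log2 fold change -0.28 ± 0.054 SE, adjusted p = 0.000534) and raised it 1.24-fold in the presence of IL-13 (log2 fold change 0.31 ± 0.055 SE, adjusted p = 0.000315). The difference between the effects was 0.59 ± 0.077 SE on the log2 scale (adjusted p = 8.63e-05). The *Tbxas1* gene body shares 762 bases with *Hipk2* on the opposite strand, with 0 exonic bases in common. Platelets also express this gene. Of their 6 markers, all were called lower with IL-4 and with IL-13, and with IL-6 2 were called higher and 1 lower under each cytokine. *Ppbp* ranged from 155 to 173 normalized CPM in controls and from 0.996 to 4.40 in treated libraries, and *Pf4* averaged 68.7 with IL-4 and 235 with IL-4/IL-6, and 75.5 with IL-13 and 390.1 with IL-13/IL-6. The part of platelet RNA in the *Tbxas1* values was not tested.

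*Ptges* (microsomal prostaglandin E synthase 1; ENSMUSG00000050737, GRCm38 chr2:30889471-30929863, minus strand) makes prostaglandin E2. Its normalized CPM was 5.89, 6.48 and 6.68 in controls, 1.82, 1.38 and 1.58 with IL-4 and 1.36, 1.83 and 2.02 with IL-4/IL-6. The IL-13 libraries were at 2.36, 1.97 and 2.32 and those with IL-13/IL-6 at 3.30, 1.63 and 3.34. Each control library exceeded each treated library, and the treated groups overlapped except that all IL-13 libraries lay above all IL-4 libraries. *Ptges* fell 3.96-fold with IL-4 (log2 fold change -1.99 ± 0.23 SE, adjusted p = 9.87e-07) and 2.86-fold with IL-13 (log2 fold change -1.51 ± 0.22 SE, adjusted p = 1.67e-05). IL-6 co-addition gave 0.12 ± 0.27 SE over IL-4 and 0.31 ± 0.24 SE over IL-13 on the log2 scale, and neither passed (adjusted p = 0.771 and 0.408). *Ptges* and *Ptgs2*, which act in sequence in prostaglandin E2 synthesis, moved in opposite directions from control in all 4 cytokine groups.

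The balance of the 2 abundant terminal synthases differed between groups. The FPKM ratio of *Tbxas1* to *Hpgds* was 0.452 ± 0.00796 (SD, n = 3) in controls and 2.19 ± 0.0476 with IL-4. It was 1.48 ± 0.155 with IL-4/IL-6, 0.834 ± 0.0758 with IL-13 and 0.898 ± 0.0616 with IL-13/IL-6. *Hpgds* was the more abundant in all 9 control, IL-13 and IL-13/IL-6 libraries and *Tbxas1* in all 6 libraries of the other groups. The ranges of IL-13 and IL-13/IL-6 overlapped, and those of the other groups did not.

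*Alox5* (5-lipoxygenase; ENSMUSG00000025701, GRCm38 chr6:116410077-116461178, minus strand) catalyzes the first steps of leukotriene synthesis. Untreated cells had 6.25, 5.93 and 5.72 normalized CPM. After IL-4 this was 3.37, 2.55 and 2.67, and after IL-4/IL-6 4.25, 2.77 and 2.94. After IL-13 it was 5.03, 7.55 and 6.49, and after IL-13/IL-6 2.37, 3.63 and 2.06. The libraries fell into a higher range, control and IL-13, which overlapped, and a lower range, the other 3 groups, which also overlapped. *Alox5* fell 2.08-fold with IL-4 (log2 fold change -1.06 ± 0.22 SE, adjusted p = 0.000426), while IL-13 gave 0.09 ± 0.20 SE (adjusted p = 0.722). IL-6 lowered it 2.35-fold in the presence of IL-13 (log2 fold change -1.23 ± 0.22 SE, adjusted p = 0.000372) and gave 0.21 ± 0.23 SE in the presence of IL-4 (adjusted p = 0.509). The difference between these effects was -1.45 ± 0.32 SE (adjusted p = 0.00835). Neutrophils also express *Alox5*. Their 7 markers summed to between 336 and 402 normalized CPM in controls, 1.05 and 1.50 with IL-4, 1.39 and 2.04 with IL-13 and 1.33 and 1.95 with IL-13/IL-6, and their part was not tested.

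*Alox5ap* (FLAP, which presents arachidonic acid to 5-lipoxygenase; ENSMUSG00000060063, GRCm38 chr5:149264767-149288153, plus strand) moved differently from its partner. Control values were 55.3, 46.9 and 51.6 normalized CPM, and those with IL-4 were 51.6, 54.6 and 56.3. The IL-4/IL-6 values were 38.0, 45.4 and 37.7, the IL-13 values 67.0, 62.0 and 62.0, and the IL-13/IL-6 values 75.3, 71.9 and 74.8. IL-13/IL-6 was highest and IL-4/IL-6 lowest, both clear of the other groups, and IL-4 overlapped with control. *Alox5ap* rose 1.24-fold with IL-13 (log2 fold change 0.31 ± 0.081 SE, adjusted p = 0.00321) and gave 0.08 ± 0.081 SE with IL-4 (adjusted p = 0.404). IL-6 lowered it 1.34-fold in the presence of IL-4 (log2 fold change -0.42 ± 0.082 SE, adjusted p = 0.000476). With IL-13 the IL-6 effect was 0.22 ± 0.080 SE and did not pass (adjusted p = 0.0582), but passed without IL-13 replicate 1 (0.0430) and with DESeq2 (0.0447). The IL-6 effects differed by 0.64 ± 0.12 SE (adjusted p = 0.00152). The FPKM ratio of *Alox5ap* to *Alox5* was 24.8 ± 1.73 (SD, n = 3) in controls, 55.7 ± 9.95 with IL-4, 36.8 ± 10.8 with IL-4/IL-6, 29.9 ± 7.64 with IL-13 and 84.7 ± 24.7 with IL-13/IL-6. The IL-13 and IL-13/IL-6 ratios did not overlap.

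*Alox15* (12/15-lipoxygenase; ENSMUSG00000018924, GRCm38 chr11:70344152-70352031, minus strand) was close to the detection limit. The control libraries held 15, 15 and 8 counts, those with IL-4 2, 0 and 0, and those with IL-4/IL-6 1, 1 and 0. There were 0, 0 and 1 counts with IL-13 and 1, 0 and 0 with IL-13/IL-6. Each control library exceeded each treated one, and the low-count filter left the gene out of the main test. Of the 5 eosinophil markers, 4 also lay below every control in all treated libraries, while *Ccr3* rose. The part of such cells in the *Alox15* counts was not tested. Summed over libraries, the normalized level in controls was 19 times that with IL-4 (95% exact interval 4.91 to 163, from 38 and 2 counts) and 38.5 times that with IL-13 (6.51 to 1562, from 38 and 1 counts). These intervals cover counting error. In the unfiltered fit the falls had adjusted p-values of 0.000858 and 0.000233. Differences between the cytokine groups were not detectable at this depth.

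*Lta4h* (leukotriene A4 hydrolase; ENSMUSG00000015889, GRCm38 chr10:93453411-93484875, plus strand) makes leukotriene B4. In the 3 control libraries, *Lta4h* stood at 107, 108 and 97.3 normalized CPM. It stood at 84.9, 85.6 and 84.0 with IL-4 and at 63.6, 73.3 and 68.8 with IL-4/IL-6. With IL-13 it was at 85.1, 80.3 and 79.3, and with IL-13/IL-6 at 69.9, 67.4 and 72.0. Control was clear of all treated groups, IL-4 overlapped with IL-13, and the co-treated groups overlapped with each other below both. *Lta4h* fell 1.23-fold with IL-4 (log2 fold change -0.30 ± 0.066 SE, adjusted p = 0.000801) and 1.28-fold with IL-13 (log2 fold change -0.35 ± 0.066 SE, adjusted p = 0.000207). IL-6 lowered it 1.24-fold over IL-4 (log2 fold change -0.31 ± 0.067 SE, adjusted p = 0.00133) and 1.17-fold over IL-13 (log2 fold change -0.23 ± 0.067 SE, adjusted p = 0.0186), the latter not passing without IL-13/IL-6 replicate 2 (0.0720) or with no low-count filter (0.107). The interaction was 0.08 ± 0.095 SE (adjusted p = 0.751). *Lta4h* was the member called lower in all 4 of these comparisons.

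*Ltc4s* (leukotriene C4 synthase; ENSMUSG00000020377, GRCm38 chr11:50236461-50238616, minus strand) makes the parent cysteinyl leukotriene and was also sparse. The control libraries held 12, 8 and 7 counts and the IL-4 libraries 9, 8 and 5. With IL-4/IL-6 there were 0, 3 and 0 counts, with IL-13 5, 0 and 2, and with IL-13/IL-6 5, 2 and 1. Control and IL-4 overlapped, and every IL-4/IL-6 library lay below every IL-4 library. The summed level was 6.92 times lower with IL-4/IL-6 than with IL-4 (95% exact interval 2.08 to 36.1, from 3 and 22 counts). Without the low-count filter this had a log2 fold change of -2.68 (adjusted p = 0.0239), and with DESeq2 -2.79 (adjusted p = 0.0418). The level with IL-13 was 3.91 times lower than in controls (1.66 to 10.6, from 7 and 27 counts, unfiltered adjusted p = 0.0600). Against IL-4 it was 3.19 times lower (1.31 to 8.83, from 7 and 22 counts, unfiltered adjusted p = 0.261). Mast cell and basophil markers summed to between 8.87 and 9.48 normalized CPM in controls and at most 0.236 in treated libraries. Their part in the *Ltc4s* counts was not tested.

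The interaction across all members asked whether IL-6 acted differently in the presence of IL-13 and of IL-4. Of the 8 tested members, 5 passed, *Alox5ap*, *Ptgs1*, *Ptgs2* and *Tbxas1* with a more positive IL-6 effect under IL-13 and *Alox5* with a more negative one. Of all tested genes, 7.64% passed, 4.42% positive and 3.22% negative. The members' median was 0.39 on the log2 scale, beside -0.02 over all genes. *Ptges*, *Lta4h* and *Hpgds* did not pass, with differences of 0.19 ± 0.36, 0.08 ± 0.095 and -0.09 ± 0.092 SE. The cyclooxygenases gained transcript with IL-6 under IL-13 and showed no called change under IL-4.

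IL-13 and IL-4 were given at different doses, 40 and 10 ng/ml, so their direct comparison holds cytokine and dose together. *Alox5* was 2.21-fold higher with IL-13 than with IL-4 (log2 fold change 1.15 ± 0.22 SE, adjusted p = 0.00162), and *Hpgds* 1.80-fold higher (log2 fold change 0.85 ± 0.065 SE, adjusted p = 1.11e-07). *Ptgs1* was 2.17-fold lower (log2 fold change -1.12 ± 0.076 SE, adjusted p = 3.26e-08), and *Tbxas1* 1.46-fold lower (log2 fold change -0.55 ± 0.055 SE, adjusted p = 2.07e-06). These 4 of 8 members stand beside 12.8% called over all tested genes, 7.61% higher and 5.16% lower. *Alox5ap*, *Ptgs2*, *Ptges* and *Lta4h* did not pass, with log2 fold changes of 0.23 ± 0.081, -0.95 ± 0.36, 0.47 ± 0.26 and -0.06 ± 0.067 SE. With no low-count filter *Ptgs2* passed (adjusted p = 0.00754), and likewise without IL-4 replicate 1 (0.0409).

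Over the 15 libraries, which share their group structure, Pearson's r was taken between log2 CPM values. It was 0.84 for *Ptges* and *Hpgds*, 0.78 for *Ptgs2* and *Tbxas1*, and 0.75 for *Ptgs1* and *Tbxas1*. It was -0.84 for *Ptgs2* and *Lta4h*, -0.83 for *Hpgds* and *Tbxas1*, -0.81 for *Alox5* and *Tbxas1*, and -0.78 for *Ptges* and *Tbxas1*. *Alox5* also had -0.78 with *Ptgs2* and -0.77 with *Ptgs1*. These were all the pairs with an absolute r of at least 0.75. *Alox5* and *Alox5ap* had an r of -0.09. Among genes with a mean of at least 5 normalized CPM, those most like *Hpgds* were *Pou2f2* (r = 0.98), *Nfkbiz* (0.98) and *Rab32* (0.98), and those most like *Lta4h* were *Creg1* (0.97), *Pgd* (0.97) and *Psap* (0.97). *Ptges* was most like *Sp140* (0.97), *L3mbtl3* (0.95) and *Sash3* (0.94). *Ptgs1* was most like *Scn3a* (0.95), *Socs2* (0.93) and *Cst7* (0.92), *Ptgs2* like *Necap1* (0.93), *Cd40* (0.92) and *Rasgrp4* (0.91), and *Tbxas1* like *Cd151* (0.94), *Junb* (0.93) and *Plk3* (0.93). *Alox5ap* was most like *Smagp* (0.94), *C5ar1* (0.94) and *Slc37a2* (0.93). *Alox5* had the least close neighbours, *Pip4k2a* (0.91), *Plcb4* (0.84) and *Tbc1d2* (0.84). These are descriptions over libraries of the same 5 groups.

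Of 75 other eicosanoid pathway genes found in the matrix, 53 were tested. With IL-4, 12 rose and 25 fell, and with IL-13, 16 rose and 24 fell. IL-6 co-addition with IL-4 raised 13 and lowered 17, and with IL-13 raised 13 and lowered 14. The shares of all genes called were those given above (68%, 60.1%, 39.4% and 25.6%). In the same order, 32.1%, 29%, 20.7% and 12.1% of all genes were called higher and 35.9%, 31.1%, 18.7% and 13.5% lower. The median log2 fold changes of the 53 were -0.34, -0.21, 0.06 and -0.04 in these comparisons, beside -0.05, -0.02, 0.04 and 0.01 over all genes. Genes named below were the up to 3 in each role with the largest change over 2-fold.

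**Figure D4:**
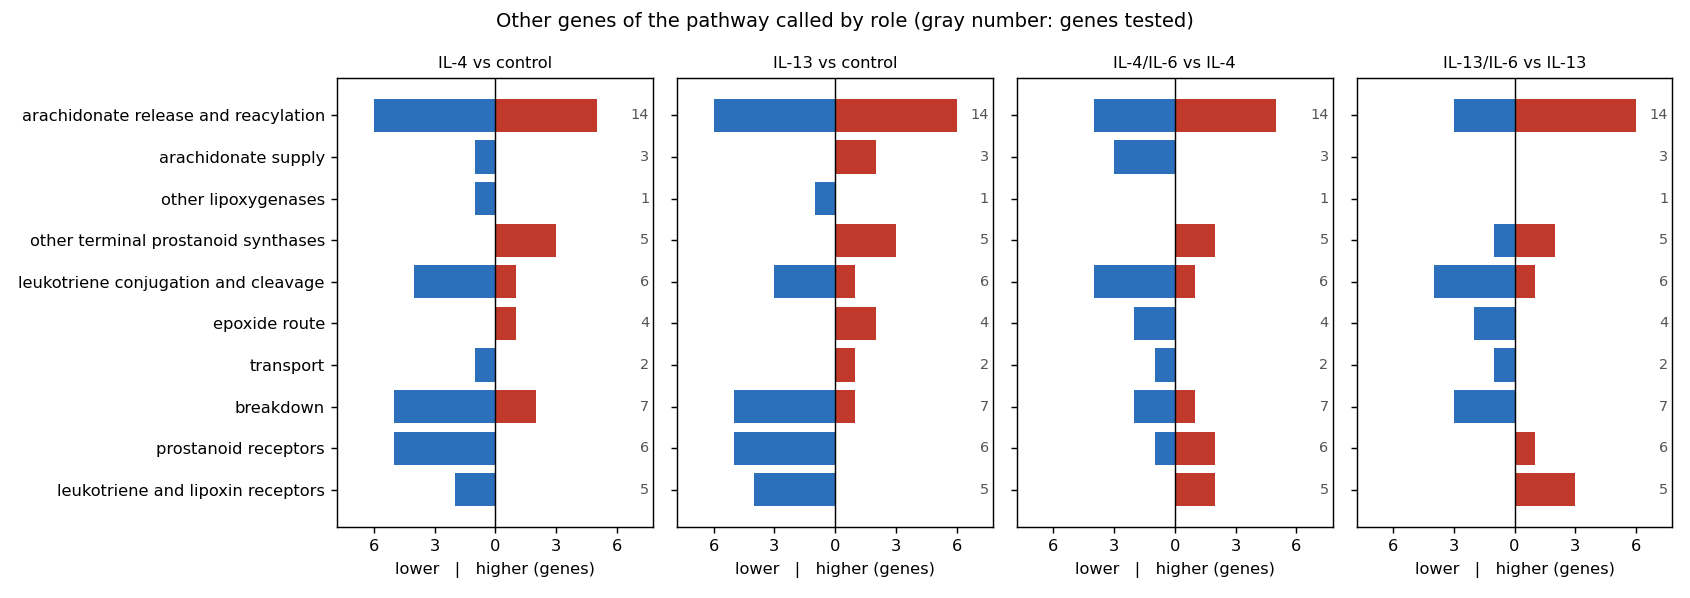
Number of other pathway genes called higher (to the right) and lower (to the left) by role, in 4 comparisons of 3 against 3 libraries; gray numbers give how many genes of the role were tested. With IL-4, 5 of 6 tested prostanoid receptors and 5 of 7 tested breakdown genes are lower, beside 35.9% of all tested genes.

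Among 14 tested genes of arachidonate release and reacylation, 5 rose and 6 fell with IL-4, and 6 rose and 6 fell with IL-13. IL-6 raised 5 and lowered 4 of them under IL-4, and raised 6 and lowered 3 under IL-13. *Pla2g5*, a secreted phospholipase A2, went from 5, 1 and 0 counts in controls to 196, 216 and 189 with IL-4 and 62, 72 and 74 with IL-13. Summed over libraries, its level was 100.1 times that of controls with IL-4 (95% exact interval 45.7 to 274) and 34.2 times with IL-13 (15.4 to 94.2), both resting on 6 control counts and covering counting error only. The fitted log2 fold changes of *Pla2g5* were 6.56 ± 0.32 SE and 5.01 ± 0.37 SE (adjusted p = 1.24e-11 and 3.88e-09), and 8.31 and 6.75 without control replicate 1. IL-6 raised it further by 0.64 over IL-4 and 0.92 over IL-13 (adjusted p = 0.00340 and 0.000942). *Pla2g2e*, another secreted phospholipase A2, rose 4.29-fold with IL-4 and 3.50-fold with IL-13 (adjusted p = 4.01e-06 and 3.27e-05). *Mgll*, the lipase of monoacylglycerols, fell 13.3-fold with IL-4 and 13.8-fold with IL-13, and IL-6 lowered it again by 2.31-fold and 2.07-fold (adjusted p at most 4.96e-06 in all 4). Of 3 arachidonate supply genes tested, 1 fell with IL-4 and 2 rose with IL-13, and IL-6 lowered all 3 under IL-4 and 0 under IL-13. The call with IL-4, *Fads1*, was lost with any of the 6 libraries left out (adjusted p up to 0.188). That of *Elovl5* with IL-13 was lost with any of 5 of 6 (adjusted p up to 0.117). *Fads2*, a desaturase in the synthesis of arachidonic acid, fell 2.63-fold when IL-6 was added to IL-4 (log2 fold change -1.39 ± 0.11 SE, adjusted p = 8.95e-09) but gave 0.08 ± 0.092 SE with IL-13, a difference of 1.48 ± 0.14 SE (adjusted p = 3.37e-06).

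*Alox12*, the platelet-type 12-lipoxygenase and the one other lipoxygenase tested, went from 481, 401 and 344 counts in controls to 10, 2 and 4 with IL-4 and 4, 9 and 9 with IL-13 (log2 -6.22 ± 0.34 and -5.79 ± 0.33 SE, adjusted p = 6.38e-11 and 1.28e-10), the former -6.98 without IL-4 replicate 1. All 6 platelet markers fell beside it with both cytokines, and their part was not tested. Of 5 other terminal prostanoid synthases tested, 3 rose with each cytokine. *Ptges2* rose 2.38-fold with IL-4 and 1.89-fold with IL-13, and *Ptges3* 2.06-fold and 1.89-fold. Both are named as prostaglandin E synthases and moved opposite to *Ptges*, and no prostaglandin was measured here. *Prxl2b*, a prostaglandin F synthase, averaged 16.9 normalized CPM in controls, 16.9 with IL-4 and 16.9 with IL-13, and rose 2.08-fold and 1.66-fold with IL-6 over them (adjusted p = 4.65e-05 and 0.00246).

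In leukotriene conjugation and cleavage, 4 of 6 tested genes fell with IL-4 and 3 with IL-13, and 1 rose with each. IL-6 raised 1 and lowered 4 under each cytokine. *Mgst2*, which can also make leukotriene C4, fell 8.97-fold and 4.93-fold (adjusted p = 3.46e-08 and 7.75e-07). *Ggt5*, which cleaves leukotriene C4, fell from 25, 16 and 28 counts to 4, 3 and 2 with IL-4 and 2, 0 and 3 with IL-13, and IL-6 raised it to 15, 20 and 17 and 14, 7 and 8 (log2 2.57 ± 0.51 and 2.51 ± 0.62 SE, adjusted p = 0.000539 and 0.00556), the latter 3.14 without IL-13 replicate 3. *Dpep3*, a dipeptidase, fell 8.17-fold when IL-6 was added to IL-4 (log2 fold change -3.03, adjusted p = 0.000130, and -3.83 without IL-4/IL-6 replicate 1). In the epoxide route, *Ephx1*, an epoxide hydrolase, rose 2.79-fold with IL-4 and 1.86-fold with IL-13, and IL-6 lowered it 2.61-fold and 1.74-fold (adjusted p at most 1.32e-05 in all 4). *Cyp2s1*, a cytochrome P450, had 20, 17 and 14 counts with IL-4 and 0 in each IL-4/IL-6 library, at least 5.35-fold lower against a floor of 3 counts per library, and fell 5.39-fold when IL-6 was added to IL-13 (adjusted p = 0.000101).

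Of 7 breakdown genes tested, 5 fell with IL-4 and 5 with IL-13, while 2 rose with IL-4 and 1 with IL-13. IL-6 raised 1 and lowered 2 under IL-4 and raised 0 and lowered 3 under IL-13. *Hpgd*, which inactivates prostaglandins, fell 21.1-fold with IL-4 and 6.98-fold with IL-13 (log2 -4.40 ± 0.14 and -2.80 ± 0.12 SE, adjusted p = 5.26e-14 and 4.11e-12). IL-6 lowered it further by 1.69-fold over IL-4 and 3.52-fold over IL-13, and these effects differed (log2 -1.06 ± 0.25 SE, adjusted p = 0.0128), though not without IL-4/IL-6 replicate 3 (*Hpgd* adjusted p = 0.0712). *Cyp4f18*, which inactivates leukotriene B4, fell 16.3-fold and 11.6-fold, and IL-6 lowered it by a further 3.58-fold and 3.96-fold (adjusted p at most 5.11e-05 in all 4). Neutrophils also express *Cyp4f18*. All 7 of their markers lay below every control in treated libraries, as given above, and their part was not tested. Among transporters, of which 2 were tested, none changed over 2-fold.

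Of 6 prostanoid receptors tested, 5 fell with IL-4 and 5 with IL-13. IL-6 raised 2 and lowered 1 under IL-4, and raised 1 and lowered 0 under IL-13. *Tbxa2r*, the thromboxane A2 receptor, had 67, 35 and 43 counts in controls and 0 in each IL-4, IL-13 and IL-13/IL-6 library, at least 16.1-fold, 16.3-fold and 15.7-fold lower against a floor of 3 counts per library. Platelets also carry this receptor, and 5 of the 6 platelet markers lay below every control in all treated libraries, *Itga2b* going from between 109.9 and 122 normalized CPM to between 0.996 and 2.31. Their part was not tested. *Ptger2*, a prostaglandin E2 receptor, fell 1.67-fold with IL-4 and 2.89-fold with IL-13 (adjusted p = 5.44e-06 and 1.47e-09). *Ptger1*, another of these receptors, fell 3.28-fold with IL-4 (adjusted p = 0.0323) from 16, 17 and 17 counts, a call of *Ptger1* that was lost with any of 5 of the 6 libraries left out (adjusted p up to 0.119). Of 5 leukotriene and lipoxin receptors tested, 2 fell with IL-4 and 4 with IL-13, and IL-6 raised 2 under IL-4 and 3 under IL-13. *Ltb4r1*, the high-affinity leukotriene B4 receptor, had 71, 58 and 42 counts in controls, 39, 45 and 34 with IL-4 and 18, 13 and 6 with IL-13. IL-6 raised it to 242, 256 and 165 over IL-4 and 181, 181 and 172 over IL-13, or 5.94-fold and 14.9-fold (adjusted p = 6.64e-08 and 8.62e-09), with a difference of 1.32 ± 0.39 SE (adjusted p = 0.0455). That difference was lost with any of 10 of the 12 libraries left out (adjusted p up to 0.156). *Ltb4r2* had 15, 15 and 20 counts in controls and 0 in each IL-13 library, at least 5.63-fold lower against that floor. *Fpr2*, a formyl peptide receptor that also binds lipoxin A4, had 57, 50 and 61 counts in controls and 0 in each IL-4 library, at least 18.7-fold lower. Neutrophils also express *Ltb4r1* and *Fpr2*, and their part in these differences, with and without IL-6, was not tested.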

How the data were processed

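RNA of the 15 libraries was measured by bulk RNA sequencing. The authors deposited whole-number counts for 53465 Ensembl genes, not normalized, and per-library FPKM values for 26080 of them. The FPKM values deposited by the authors are these counts divided by a gene length and by the library total, checked on 268061 values (largest relative spread of the implied length 7.35e-07). The submitters' processing notes name GRCm38, CASAVA, Bowtie2 2.2.3, HISAT2 2.1.0, TopHat2 and DESeq2, with no roles; the counting tool, its annotation and its use of strand are not given in the sources used here, so reads of a gene and of an overlapping antisense gene cannot be told apart. Symbols were found for 53274 genes.

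Counts were tested with edgeR 4.0.16 in R 4.3.3: filterByExpr (minimum count 10), TMM factors, 1 quasi-likelihood fit of all 15 libraries without covariates, 8 contrasts, and Benjamini-Hochberg adjustment over 13938 genes. A gene was called changed at an adjusted p under 0.05, and over 2-fold at an absolute log2 fold change above 1. Normalized CPM is CPM on TMM-scaled totals. Low counts were compared as summed counts with exact 95% intervals, which cover counting error only, and a group at 0 was set to 3 counts per library. The study calls its replicates biological; whether those of these libraries came from separate animals or cultures is not given in the sources used here, so p-values measure only the spread between these libraries. No replicate pair agreed within sampling noise. The fitting script was tested on simulated data.

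The members, the 76 listed pathway genes (75 found), the 47 markers and the tests were chosen with earlier results of these data known. Named genes were the members, up to 3 genes in each pathway role with the largest change over 2-fold in the 4 main comparisons, the 3 genes with the highest Pearson correlation with each tested member over the 15 libraries (log2 CPM, prior count 2, mean of at least 5 normalized CPM), and markers. Alternatives were other size factors, other low-count filters, DESeq2 1.42.0, limma 3.58.1 on log2(FPKM + 1) and log2(FPKM + 0.1) for genes with a mean FPKM of at least 0.5, the replicate number as a block, fits of the compared groups alone, leaving out each library, and, chosen after seeing the data, a fit without controls. Promoter windows came from RefSeq (GRCm38.p6).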

Additional observations from a re-analysis of the deposited data

Results flagged for a closer look

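For 5 of the 8 tested members the effect of IL-6 under IL-13 differed from its effect under IL-4, by the interaction term of the edgeR fit. *Alox5* differed by -1.45 on the log2 scale (adjusted p = 0.00835): its 3 IL-13/IL-6 libraries lay below its 3 IL-13 libraries, while IL-4/IL-6 and IL-4 overlapped. *Alox5ap* differed by 0.64 (adjusted p = 0.00152), lower with IL-6 in 3 of 3 libraries under IL-4 and higher in 3 of 3 under IL-13. *Ptgs1* differed by 0.68 (adjusted p = 0.000442), with 3 of 3 libraries higher under each cytokine and the larger step under IL-13. *Ptgs2* differed by 1.96 (adjusted p = 0.0152), the one of the 5 whose call was lost under an alternative. *Tbxas1* differed by 0.59 (adjusted p = 8.63e-05), lower in 3 of 3 libraries under IL-4 and higher in 3 of 3 under IL-13. IL-4/IL-6 was the group with the widest replicate spread, and its part in these differences was not tested.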

How the results depend on the processing

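Of 1040 recomputed member results, 1013 kept their direction and side of the threshold, 15 lost a call, 7 gained one and 5 changed sign; the cause was not tested. None of the 5 sign changes was of a called value. *Alox5* with IL-13 against control was -0.034 without IL-13 replicate 2 (range over left-out libraries -0.034 to 0.27), and with IL-4/IL-6 against IL-4 it was -0.031 without IL-4/IL-6 replicate 1 (-0.031 to 0.33). *Ptgs2* with IL-4/IL-6 against IL-4 was 0.29 without IL-4 replicate 3 and 0.20 without IL-4/IL-6 replicate 2 (-0.34 to 0.29), and *Ptges* there was -0.023 without IL-4/IL-6 replicate 3 (-0.023 to 0.24). The number of other pathway genes changed with IL-13 against IL-4, 19, was between 11 and 20 with 1 library left out: 12 without IL-4 replicate 1 or IL-13 replicate 3, and 11 without IL-4 replicate 2, IL-4 replicate 3 or IL-13 replicate 2.

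*Ptgs2* with IL-13 against control did not pass with limma on log2(FPKM + 1), a pseudocount far above its level (0.26, adjusted p = 0.0850), and its interaction did not pass with limma on log2(FPKM + 0.1) (1.68, adjusted p = 0.0521). *Alox5ap* with IL-13 against IL-4 passed with DESeq2 (adjusted p = 0.0477) and with both limma fits (0.0218 and 0.0233). With the replicate number as a block, no call of a member changed and the pathway genes with an interaction numbered 11 rather than 12. The numbers do not pair the libraries: of 30 same-numbered pairs between groups, correlations of deviations ran from -0.28 to 0.16, 3 of them over 0.1, and a library correlated best with its own number in 14 of 60 cases. At this depth, *Alox15* allowed no comparison between cytokine groups. For *Ltc4s*, the fall with IL-4/IL-6 against IL-4 passed in the unfiltered edgeR fit (adjusted p = 0.0239) and with DESeq2 (0.0418). IL-13 against IL-4 did not pass in the unfiltered fit (0.261), nor did IL-13/IL-6 against IL-13.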
